A study of Mus musculus with 62 samples.

Results

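Proteasome subunit genes were followed through 31 long-RNA libraries. Of these, 17 were made from the hippocampus of mice and 14 from cultures of HT-22, a neuronal line of mouse hippocampal origin. Genes whose symbol starts with Psma, Psmb, Psmc, Psmd, Psme, Psmf or Psmg and a number were taken where their mean TPM (a level per transcript length, scaled to a fixed total per library) over the 31 libraries was at least 1. Pseudogenes and the inducible subunits Psmb8 and Psmb9 were left out by the rule. This gave 46 of the 53975 genes in the tables. Another 2 genes matched the name and lay below the minimum, the testis subunit Psma8 with a mean TPM of 0.0348 and the thymic subunit Psmb11 with 0.0396. Of the 46 genes, 15 encode the 20S core, 17 the 19S cap and 13 regulators, while Psmc3ip matched by name only and encodes a meiotic recombination factor that is not a proteasome subunit.

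The proteasome degrades proteins that carry ubiquitin chains. Its 20S core is a barrel of alpha and beta rings with the proteolytic sites inside, and its 19S cap recognises the chain, removes it, and unfolds the substrate with a ring of ATPases before feeding it into the core. Activators such as PA28 and PA200 can bind the core in place of the cap, dedicated chaperones assemble both particles, and interferon can replace the catalytic subunits with inducible ones. In neurons the proteasome takes part in synaptic protein turnover, and it has been studied widely in Alzheimer's disease models.

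The mice carried the knock-in App allele NL-G-F (APP), a humanised and mutated allele under the endogenous App promoter, or were C57BL/6J mice (WT) without it, so the humanised sequence and the mutations were not separated. Libraries came from 3 APP mice at each of 3, 6 and 12 months, and from 2, 3 and 3 WT mice at those ages, with the hippocampi of both hemispheres pooled for each mouse. For 24 h, HT-22 cells at passage 4 were given anti-Hsf1 LNA (locked nucleic acid, a stabilised antisense oligonucleotide) at 150 nM, or scramble LNA at the 50 uM that the labels state. As labelled, dose and target of the LNA cannot be told apart, and the sources used here do not say whether the units are as meant. They then received 30 uM of amyloid beta 1-42 (Ab42) or of the reverse 42-1 peptide. The scramble groups held 4 libraries each and the anti-Hsf1 groups 3 each, and the series' design text calls them biological replicates.

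Several properties of the libraries bear on all results. Relative depth, read from the ratio of the deposited Coverage to FPKM, was 1.42 to 3.04 for mouse and 0.724 to 2.60 for HT-22. Hsf1, the target of the LNA, differed by -0.15 on the log2 scale between anti-Hsf1 and scramble cells under the reverse peptide (adjusted p = 0.959, limma) and by -0.37 under Ab42 (adjusted p = 0.526), so neither change passed the test. Xist was high and the Y-linked Ddx3y near 0 in all APP libraries and in WT at 3 months, whereas the WT libraries at 6 and 12 months had Xist of 0.264 to 0.518 and Ddx3y of 18.4 to 28.0 scaled TPM. The sex that this pattern implies and the genotype cannot be told apart at 6 and 12 months, nor can sex and age in WT. Of the neuron markers, Gad1, Prox1, Rbfox3, Snap25 and Syt1 were at 0 in every HT-22 library, and the 8 listed neuron markers summed to 1.49 to 7.63 scaled TPM there.

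Levels below are TPM scaled by median of ratios within the mouse or the HT-22 libraries, and a change is a difference of log2(scaled TPM + 1) with its standard error, from limma fitted over all 17840 genes tested in mouse and 17291 in HT-22 cells. A gene was called changed where its Benjamini-Hochberg adjusted p over all genes tested was below 0.05.

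In the hippocampus the core and cap genes had like levels, and the regulators were lower. The median of the genes' means over the 17 mouse libraries was 41.1 scaled TPM for the 20S core, 44.0 for the 19S cap and 9.07 for the regulators. Within the core, Psmb4, a beta ring subunit, was highest at 69.1, and Psmb10, the inducible counterpart of the trypsin-like subunit Psmb7, was lowest at 11. The 3 constitutive catalytic subunits were among the 4 highest core genes, with Psmb7 at 67.3, the chymotrypsin-like Psmb5 at 57.5 and the caspase-like Psmb6 at 54.5. In the cap, the ATPase Psmc3 was highest at 69.7 and the lid subunit Psmd11 lowest at 23.7. The deubiquitinase Psmd14, which removes the ubiquitin chain, stood at 51.4 and the ubiquitin receptor Psmd4 at 35.0. Over the 31 libraries the deposited Coverage of Psmd14 was only 0.542 to 2.98, with a median of 1.23. Psmc1, of like mean TPM (56.1 against 56.8), had a median Coverage of 21.8, so the Psmd14 values here and below are less certain.

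Among the regulators, the nuclear activator Psme3 (PA28 gamma) was highest at 36.6, followed by Psme4 (PA200) at 24.6 and Psme1 (PA28 alpha) at 16.5, and the core chaperone Psmg3 was lowest at 5.35. The inhibitor Psmf1 stood at 9.43, Psme2b at 9.35, the X-linked cap chaperone Psmd10 (gankyrin) at 8.48, Psme2 (PA28 beta) at 6.14 and Psmc3ip at 1.66. Psme3 also varied least of all 46 genes between mouse libraries, with a coefficient of variation of 6.83%, while the medians were 15.6% for core genes, 12.7% for cap genes and 19.4% for regulators. Psme2 and the retrogene Psme2b share 99.4% of 794 aligned transcript bases, so the division of reads between them is uncertain. On the annotation, 22 of the 46 genes overlap another gene, among them Psma4, Psma3 and Psme1 with a gene on the opposite strand, and the sources used here do not say whether the counting used strand.

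The core genes described below include Psma4 (ENSMUSG00000032301) at chr9:54950790-54958030, Psma3 (ENSMUSG00000060073) at chr12:70974621-70996347, Psmb7 (ENSMUSG00000026750) at chr2:38588036-38644087 and Psmb5 (ENSMUSG00000022193) at chr14:54614119-54618022, all on GRCm38. RefSeq promoter windows of 300 bases around the gene start (GRCm38.p6) were found for 39 of the 46 genes. They were searched on both strands for TGANNNNGC, a loose pattern for the core of the antioxidant response element. That element is bound by the factors Nfe2l1 and Nfe2l2 that drive subunit genes, but a match to the loose pattern does not show a binding site. The pattern was found in 53.8% of these 39 genes, against 47.8% of all tested genes with a window. By class the share was 66.7% for the core (8 of 12 genes), 42.9% for the cap (6 of 14) and 50.0% for the regulators. The heat shock element, a motif of Hsf1 searched as GAA, TTC and GAA with any 2 bases between them, was found in 0 of the 39 and in 0.616% of tested genes, and CCAAT in 33.3% and 42.9%. The 6 matches to TGANNNNGC upstream of a RefSeq start in 5 core genes are printed because the core genes shared a direction at 6 months, described next. Binding at them was not tested. The Psmb3 window and the second Psma6 window lie inside the bounds given for these genes with the deposited levels. Each line reads 5′ to 3′ on the strand of the gene, with the match in capitals, and in both Psma6 windows the match lies on the opposite strand.
Psma4, chr9:54950722-54950751, plus strand: gtgggcagacTGAGCCCGCcccagcactgg
Psma6, chr12:55384042-55384071, plus strand: gtcaggtcagGCAACCTCAtcagctctcaa
Psma6, chr12:55398723-55398752, plus strand: gcgagggcccGCCTACTCAggggcagtgct
Psmb3, chr11:97703404-97703433, plus strand: ttcggcaagagcgttgacccTGAGAAAGCc
Psmb5, chr14:54618023-54618052, minus strand: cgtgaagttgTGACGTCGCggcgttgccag
Psmb6, chr11:70525327-70525356, plus strand: acagaggcggactaaagagagTGACGGAGC

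At 6 months the core genes had lower scaled TPM in APP than in WT hippocampus, 1 of them past the threshold, and the cap and regulator genes lay closer to the median of all genes. Of the 46 genes, 1 fell past the threshold, the alpha ring subunit Psma4, and none rose, against 1.43% of all genes called, 1.04% lower. In whole tissue, fewer cells of a type and less RNA per cell cannot be told apart. The median change was -0.49 over the 15 core genes, -0.18 over the 17 cap genes and -0.07 over the 13 regulators, beside -0.00 over all genes tested. Without WT replicate 1 of that age the cap median was -0.10, with 13 of 17 genes below 0, and that of the regulators 0.00, while without each other 6-month library they were -0.21 to -0.14 and -0.17 to -0.05. All 15 core genes were below 0, with changes from -0.69 to -0.20. On TPM as deposited the median of all genes at this age shifted to 0.60 and that of the core to 0.20. That is -0.40 relative to all genes. On that scale 24 of the 46 genes were called higher, and the share of all genes called there is not given. Under every scaling tried the 15 core genes lay below the median of all genes. An unadjusted p below 0.05 was reached by 11 of 15 core genes, 5 of 17 cap genes and 1 of 13 regulators, against 16.9% of all genes tested.

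**Figure D1:**
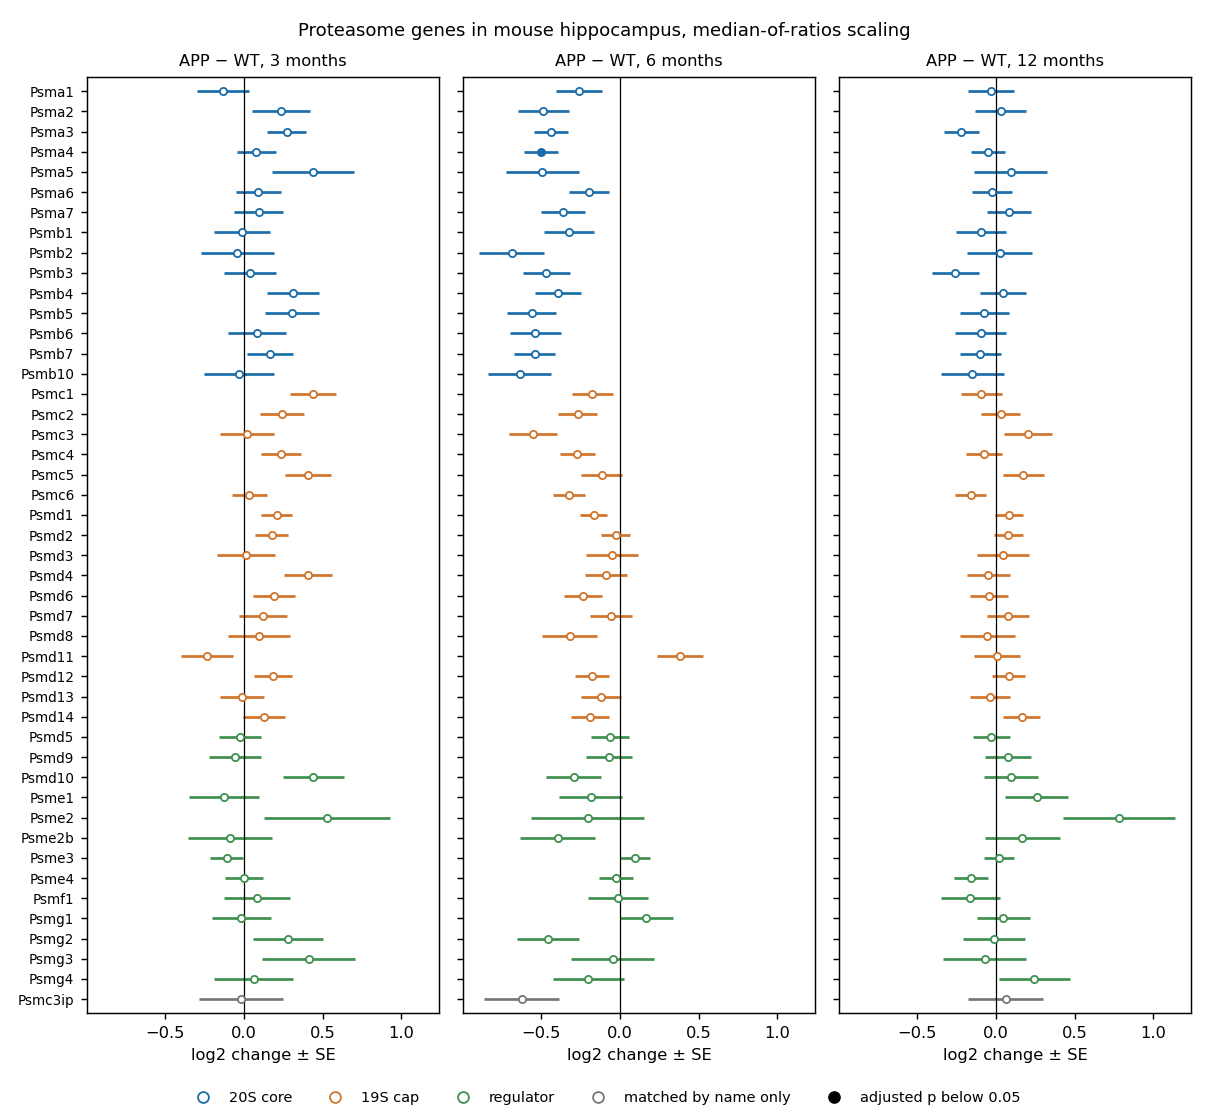
Difference between APP and WT for each of the 46 genes at ages of 3, 6 and 12 months (log2 of scaled TPM + 1, point with standard error), grouped as 20S core, 19S cap and regulators. The filled point, Psma4 at 6 months, passed an adjusted p of 0.05, and the 15 core genes lie below 0 at that age, whereas on TPM as deposited their median was 0.20 against 0.60 for all genes.

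Psma4 was at 52.7, 53.6 and 42.3 scaled TPM in the WT libraries at 6 months and at 33.9, 31.9 and 38.0 in the APP libraries, so each APP library lay below each WT library. Its change was -0.50 ± 0.11 (adjusted p = 0.0374). The call was lost with no filter on low TPM (adjusted p = 0.073), with array weights (0.054), with scaling to the protein-coding total (0.064) and with the 6-month groups fitted alone (0.158). It was also lost without 1 library, namely APP replicate 1, 2 or 3 at 6 months (adjusted p = 0.0749, 0.123 and 0.0653), WT replicate 1 or 2 at 6 months (0.134 and 0.109), APP replicate 2 or 3 at 12 months (0.0528 and 0.0551) or WT replicate 2 at 12 months (0.0502). Leaving out any of the other 9 libraries gave adjusted p from 0.0192 to 0.0480, and on TPM as deposited the change was 0.20 (adjusted p = 0.257).

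The catalytic subunits had lower values in APP too, without passing the test. Psmb7 was at 84.5, 71.1 and 70.6 in WT and at 58.9, 43.7 and 52.1 in APP, a difference of -0.54 ± 0.13 (adjusted p = 0.0525). Psmb5 was at 69.9, 70.2 and 58.2 in WT and at 57.5, 40.1 and 37.7 in APP, with -0.56 ± 0.15 (adjusted p = 0.081). Psmb6 was at 76.3, 57.4 and 58.1 in WT and at 51.5, 37.4 and 42.2 in APP, with -0.54 ± 0.16 (adjusted p = 0.107). For each of these 3 genes the groups did not overlap. Psmb10 had 16.5, 9.96 and 11.3 in WT and 9.68, 5.68 and 7.80 in APP, a difference of -0.64 with an adjusted p of 0.117.

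Every APP library was lower than every WT library for 12 of the 15 core genes, all but Psma6, Psma7 and Psmb1, where 10.1% of all genes tested showed this. The alpha subunit Psma3 was at 35.1, 45.1 and 35.1 in WT and at 28.3, 26.8 and 28.6 in APP (-0.44 ± 0.11, adjusted p = 0.0593). For the beta subunit Psmb2, WT held 59.2, 32.0 and 32.9 and APP 24.3, 26.0 and 22.6 (-0.69 ± 0.21, adjusted p = 0.103), with the first WT library far above the other WT values. Psmb3 had 32.8, 36.8 and 30.6 in WT and 30.6, 21 and 20.9 in APP, the highest APP value just under the lowest WT value. Leaving out each 6-month library in turn left the core median between -0.58 and -0.41 with all 15 genes below 0 each time.

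**Figure D2:**
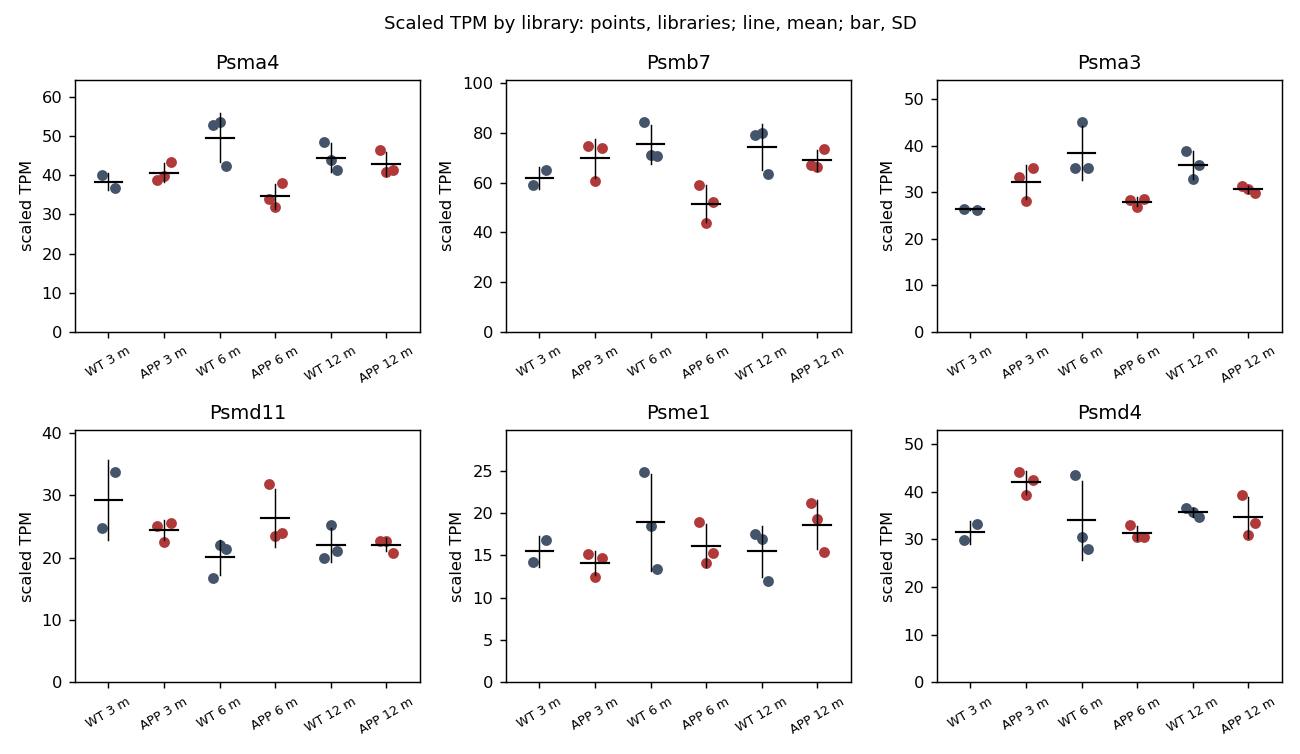
Scaled TPM of 6 genes in each of the 17 mouse libraries at 3, 6 and 12 months, APP in red and WT in grey-blue, with the group mean as a line and its SD as a bar. At 6 months Psma4, Psmb7 and Psma3 have all APP libraries under all WT libraries, Psmd11 has them above, and Psmd4 and Psme1 overlap. On TPM as deposited the Psma4 difference was 0.20, in the other direction.

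Cap genes were lower by a smaller amount, and the lid subunit Psmd11 went the other way. Every APP library was below every WT library for 3 of the 17, the ATPases Psmc2, Psmc3 and Psmc6. Psmc3 had 99.1, 71.0 and 66.6 in WT and 57.6, 49.4 and 51.4 in APP, a difference of -0.55 ± 0.15 (adjusted p = 0.081). Psmd11 was at 16.7, 22.0 and 21.4 in WT and at 31.8, 23.5 and 23.9 in APP, where each APP library was above each WT library, as for 11% of all genes, and the difference was 0.38 (adjusted p = 0.2). The deubiquitinase Psmd14 held 51.2, 54.3 and 58.8 in WT and 45.8, 44.6 and 53.3 in APP (-0.19, adjusted p = 0.456). The receptor Psmd4 held 43.5, 30.5 and 27.9 against 32.9, 30.4 and 30.5, with the groups overlapping (-0.09, adjusted p = 0.802).

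Of the 6 activator and inhibitor genes, 5 were below 0 at 6 months and none passed the test. The lowest was the PA28 beta retrogene Psme2b, at 11.8, 9.04 and 8.03 in WT and 8.76, 8.95 and 4.24 in APP, with overlapping groups (-0.40, adjusted p = 0.435). Psme3 was at 31.6, 34.3 and 36.7 in WT and at 37.0, 34.3 and 38.7 in APP (0.10, adjusted p = 0.662), and Psme4 was at 22.8, 29.3 and 26.2 against 22.7, 27.6 and 26.4 (-0.03, adjusted p = 0.934). Psme1 differed by -0.19 (adjusted p = 0.694), Psme2 by -0.21 (0.833) and Psmf1 by -0.01 (0.982), all with overlapping groups. The cap chaperone Psmd10 was the 1 regulator with every APP library lower, at 7.53, 6.29 and 7.88 against 9.27, 8.65 and 9.25 in WT (-0.29, adjusted p = 0.427). Psmd10 lies on the X chromosome and, as above, genotype and sex cannot be told apart at this age.

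Summed over the 15 core genes, scaled TPM was 694 ± 65 (SD, n = 3) in WT and 506 ± 61 in APP at 6 months, with ranges of 635 to 764 and 457 to 574 that did not overlap. The 17 cap genes summed to 777 ± 83 and 676 ± 30, and the regulators to 163 and 152. The ratio of the summed TPM of core to cap genes needs no scaling between libraries. It was 0.895 ± 0.030 (range 0.876 to 0.929) in WT at 6 months and 0.747 ± 0.057 (0.704 to 0.811) in APP, the ranges again apart.

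**Figure D3:**
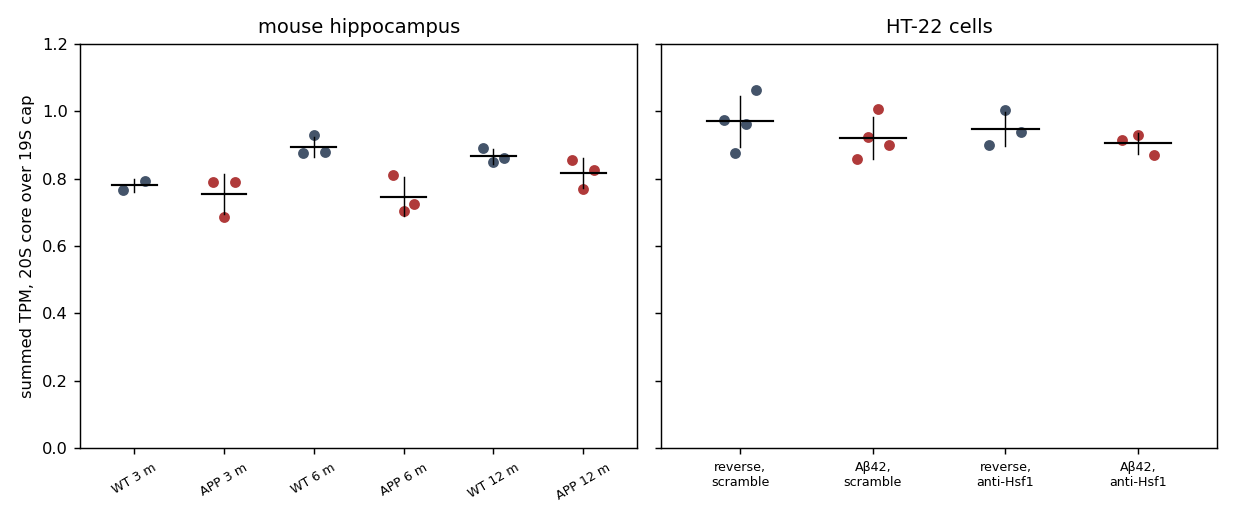
Summed TPM of the 15 core genes divided by that of the 17 cap genes in each library, for the 6 mouse groups and the 4 HT-22 groups, with the group mean and SD. At 6 months the WT libraries lie between 0.876 and 0.929 and the APP libraries between 0.704 and 0.811, and the HT-22 libraries lie between 0.858 and 1.06.

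Other measures moved with this comparison. Size factors were 0.692 to 0.847 in the WT libraries at 6 months and 1.14 to 1.47 in the APP libraries. Change at 6 months also went with transcript length. Protein-coding genes under 1000 bases of spliced length had a median change of -0.37 (83.2% below 0), those from 1000 to under 1500 bases -0.18, those from 1500 to under 2500 bases -0.05, and those of 2500 bases or more 0.07. The median spliced length was 1165 bases for the core genes, 1785 for the cap genes and 1112 for the regulators, and 12 of the 15 core genes fell in the 2 shorter bins. Within these bins the 9 proteasome genes under 1000 bases had a median of -0.40 and the 16 from 1000 to under 1500 bases one of -0.28. The summed choroid plexus markers were 1130 to 1331 scaled TPM in WT and 37.9 to 897 in APP at this age, and astrocyte markers 993 to 1140 and 1149 to 1362, both without overlap, while microglia markers (137 to 170 and 120 to 224), oligodendrocyte markers (546 to 702 and 550 to 721) and neuron markers (2062 to 2230 and 2170 to 2459) overlapped. The part of length, tissue makeup and sex in the lower core values was not tested.

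Genes that work with the proteasome were read from lists of partners, transcription factors, ubiquitin genes, the p97 segregase and the inducible subunits with their regulators. Of 17 partners, 1 fell at 6 months and none rose, with a median of -0.04. The one was Pomp, the maturation factor that assembles the 20S core, at 39.3, 28.4 and 25.8 in WT and 20.6, 16.1 and 19 in APP, so all APP libraries were lower. Its change was -0.70 ± 0.14 (adjusted p = 0.0234), and on TPM as deposited it was -0.01 where the median of all genes was 0.60. The Pomp call was lost without APP replicate 2 (adjusted p = 0.105) or 3 (0.0715) or WT replicate 1 of that age (0.0814), with no filter on low TPM (0.0549) and with the 6-month groups fitted alone (0.145). No member of the other lists was called at 6 months, with medians of -0.23 over 6 ubiquitin genes, 0.13 over 5 transcription factor genes, 0.07 over 3 p97 genes and -0.09 over 3 genes of the inducible set. Nfe2l1, the factor that raises subunit transcription when proteasomes are inhibited, was spread widely within groups (26.7, 53.3 and 27 in WT against 29.0, 29.2 and 27.4 in APP) and differed by -0.24 (adjusted p = 0.853).

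At 3 months the direction was the other one for the cap. No proteasome gene was called by limma, where 0.297% of all genes were, and 5 of 46 had an unadjusted p below 0.05 against 13.2% of all genes. The median change was 0.18 over the cap genes, 0.09 over the core and -0.00 over the regulators, beside 0.01 for all genes. On TPM as deposited the median of all genes was -0.16 and that of the cap -0.02, still 0.14 above it. For 7 of the 17 cap genes, Psmc1, Psmc2, Psmc4, Psmc5, Psmd1, Psmd4 and Psmd7, every APP library was above both WT libraries, which held for 14.1% of all genes. Outside the cap, Psma3 and Psmd10 shared this.

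The 3 genes with the smallest p at 3 months were cap genes. The ATPase Psmc1 was at 50.5 and 47.0 in WT and at 69.4, 63.2 and 66.8 in APP (0.44 ± 0.15, adjusted p = 0.206). Its fellow ATPase Psmc5 was at 65.4 and 53.4 against 80.2, 82.3 and 74.0 (0.41 ± 0.15, adjusted p = 0.232). The receptor Psmd4 was at 29.8 and 33.1 against 44.1, 39.4 and 42.5 (0.41 ± 0.15, adjusted p = 0.251). These groups did not overlap, but WT held only 2 libraries and none of the 3 passed the test.

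The catalytic genes and activators overlapped more at 3 months. Psmb5 differed by 0.31 (adjusted p = 0.484), Psmb7 by 0.16 (0.699), Psmb6 by 0.08 (0.899) and Psmb10 by -0.03 (0.977). Psmd14 differed by 0.13 (0.752), Psmd11 by -0.23 (0.596), Psme1 by -0.13 (0.863), Psme2 by 0.53 (0.64), Psme3 by -0.11 (0.729), Psme4 by -0.00 (0.999) and Psmf1 by 0.09 (0.915). Psmd10 had 7.42 and 7.18 in WT and 14, 8.54 and 8.98 in APP, apart but with 1 APP library high (0.44, adjusted p = 0.34). The summed oligodendrocyte markers were 1038 to 1781 scaled TPM in APP and 988 to 999 in WT at 3 months, and their part in the cap values was not tested.

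At 12 months the 3 classes stood near 0. No proteasome gene was called by limma, against 0.454% of all genes, and 1 of 46 had an unadjusted p below 0.05 against 6.98% of all genes. No member had every APP library higher, against 8.81% of all genes. Medians were -0.05 for the core, 0.03 for the cap and 0.05 for the regulators. The smallest p belonged to Psme2, the PA28 beta subunit, at 1.48, 5.67 and 4.39 in WT and 10.7, 7.47 and 3.59 in APP, with overlapping groups (0.78 ± 0.36, adjusted p = 0.684). Psma3 was at 38.8, 32.9 and 35.9 in WT and 31.3, 30.7 and 29.7 in APP, each APP library lower (-0.22 ± 0.11, adjusted p = 0.752), as was the case for Psmc6 and for 6.67% of all genes. Psmb3 differed by -0.26 ± 0.15 (adjusted p = 0.83).

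Of the role genes at 12 months, Psmb5 differed by -0.07, Psmb6 by -0.10, Psmb7 by -0.10, Psmb10 by -0.15, Psmd4 by -0.05, Psmd11 by 0.00, Psmd14 by 0.16, Psmd10 by 0.10, Psme1 by 0.26, Psme3 by 0.02, Psme4 by -0.16 and Psmf1 by -0.16. None of these had an adjusted p below 0.875. The core to cap ratio was 0.867 ± 0.022 in WT and 0.817 ± 0.044 in APP, with overlapping ranges of 0.849 to 0.892 and 0.770 to 0.857, and at 3 months it was 0.780 ± 0.019 and 0.755 ± 0.060. At 12 months the summed microglia markers were 138 to 163 scaled TPM in WT and 309 to 392 in APP, and astrocyte markers 1061 to 1099 and 1426 to 1590. Choroid plexus markers were 417 to 1299 and 1414 to 1638 and oligodendrocyte markers 660 to 709 and 727 to 859, also apart, and the part of these lists in these values was not tested.

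Averaged over the 3 ages, no proteasome gene was called by limma (0.219% of all genes were), and 14 of the 15 core genes lay below 0, with a median of -0.14. That median was 0.08 on TPM as deposited, where that of all genes was 0.18, and protein-coding genes under 1000 bases had a median of -0.10 with the main scaling. By age the core median was 0.09 at 3, -0.49 at 6 and -0.05 at 12 months. Genotype and sex cannot be told apart at 6 and 12 months, and both ages enter the average and the interaction. The smallest p belonged to Psmb3 (-0.23, adjusted p = 0.307), Psmc6 (-0.15, adjusted p = 0.321) and Psma4 (-0.16, adjusted p = 0.345). The interaction of genotype with age was called for no member by limma, against 0.448% of all genes, and 14 of 46 had an unadjusted p below 0.05, 7 of them core genes, against 15.8% of all genes. Its smallest p was that of Psma3 (adjusted p = 0.104), followed by Psma4 (adjusted p = 0.147) and Psmb5 (adjusted p = 0.149). In Psma3, APP was above WT at 3 months (33.2, 28.1 and 35.1 against 26.5 and 26.2) and below it at 6 and 12 months.

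Across age, no proteasome gene was called in either genotype by limma, with 0.0617% of all genes called in WT (0.0336% higher and 0.028% lower) and 3.35% in APP (1.86% higher). An unadjusted p below 0.05 was reached by 2 members in WT, against 8.34% of all genes, and by 4 in APP, against 16.5%. Between 3 and 12 months in WT the core median was 0.21, with 12 of 15 core genes above 0 and 5 of them with every 12-month library higher, against 12.3% of all genes. On TPM as deposited the median of all genes in this comparison was -0.29 and that of the core -0.11, again above all genes. Protein-coding genes under 1000 bases had a median of 0.12 in this comparison (34.7% below 0) and those of 2500 bases or more -0.06. The summed oligodendrocyte markers were 988 to 999 scaled TPM at 3 and 660 to 709 at 12 months in WT. The part of length or of these markers in the core values was not tested. As above, sex and age cannot be told apart in WT, and WT at 3 months held 2 libraries. Psma3 had the smallest p in WT (0.43 ± 0.12, adjusted p = 0.347), followed by Psmd11 (-0.38 ± 0.16, adjusted p = 0.555) and Psmb3 (0.33, adjusted p = 0.632). In APP mice the cap median was -0.12, with 14 of 17 genes below 0 and 5 of them with every 12-month library lower, against 11.4% of all genes. In the same comparison 4 of 5 listed oligodendrocyte markers fell, their sum going from 1038 to 1781 scaled TPM at 3 months to 727 to 859 at 12 months, and astrocyte markers went from 869 to 1007 to 1426 to 1590, and their part in the cap values was not tested. The smallest p in APP belonged to Psme2b (0.68 ± 0.24, adjusted p = 0.151), the lid subunit Psmd12 (-0.29 ± 0.11, adjusted p = 0.172) and Psmc1 (-0.33 ± 0.13, adjusted p = 0.216).

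The inducible subunits Psmb8 and Psmb9, which replace Psmb5 and Psmb6 in the immunoproteasome, were far lower than the constitutive genes. Psmb8 was at 0.398, 0.575 and 0.401 in APP at 3 months and at 5.76, 2.48 and 2.61 in APP at 12 months, without overlap. It met the minimum of mean TPM only through the 12-month APP libraries, the group where it was high, so its test is not used as support and the values stand as a description. In WT at 12 months Psmb8 was at 1.05, 1.41 and 1.15, below each APP library of that age. Psmb9, below the minimum of mean TPM in mouse and so not tested, was at 0.440, 0.257 and 0.315 in APP at 3 months and at 3.60, 2.23 and 1.63 at 12 months, and at 1.35, 0.714 and 1.13 in WT at 12 months.

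Irf1, an interferon response factor that drives the inducible subunits, rose with age in APP by 0.88 (adjusted p = 0.0485), a call that was lost without each of 14 of the 17 mouse libraries, all but APP replicate 3 at 12 months, WT replicate 2 at 6 months and WT replicate 3 at 12 months, with adjusted p up to 0.206. The microglia genes Csf1r, C1qa, Aif1 and Tyrobp rose in the same comparison by 0.90 to 2.39. Of the 8 listed microglia markers 5 were called higher, against 1.86% of all genes. All 8 were above 0, with a median of 1.01. Their sum was 125 to 137 scaled TPM in APP at 3 months and 309 to 392 at 12 months. The part of microglia in the Psmb8 and Irf1 values was not tested. Psmb10, the inducible subunit that met the rule, differed by 0.19 (adjusted p = 0.711) with age in APP. Its ratio to Psmb7 was 0.145 to 0.176 in the group means of the 6 mouse groups, and the single libraries of APP at 12 months ranged from 0.134 to 0.229. The sum of Psmb8 and Psmb9 was 6.20 ± 2.7 TPM (n = 3) in APP at 12 months, 2.12 ± 0.39 in WT at 12 months, and 0.810 and 0.726 in APP and WT at 3 months.

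In HT-22 cells neither the peptide nor the LNA moved any of the 46 genes past the threshold. Under scramble, Ab42 against the reverse peptide gave 0 called members and 0% of all genes by limma, and 1 member had an unadjusted p below 0.05 against 4.96% of all genes. That was Psma3, at 37.0, 56.2, 40.4 and 60.8 scaled TPM with the reverse peptide and at 58.3, 67.8, 66.6 and 58.7 with Ab42, where the groups overlapped (0.39 ± 0.16, adjusted p = 0.952). Psmd7 differed by -0.19 and Psmd2 by 0.17. No member had every Ab42 library higher or lower, which held for 0.954% and 1.41% of all genes.

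Under the anti-Hsf1 LNA, Ab42 gave 0 called members, and 0 had an unadjusted p below 0.05 against 4.65% of all genes, in limma. The lid subunit Psmd3 was at 94.5, 91.9 and 77.5 with the reverse peptide and at 111, 117 and 123 with Ab42, without overlap (0.41 ± 0.20, adjusted p = 1). Psma7, Psmb3, Psmb10, Psmc5 and Psmd11 likewise had every Ab42 library higher, as did 9.07% of all genes, and Psmd14 and Psme4 every Ab42 library lower, as did 9.24%. On TPM as deposited the median of all genes here was -0.52, and 21 of the 46 genes were called lower. The share of all genes called on that scale is not given. Of the genes just named, Psmd11 was at 84.5, 86.8 and 85.7 against 108, 90.3 and 105, and Psme4 at 116, 122 and 119 against 107, 111 and 111.

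The anti-Hsf1 LNA against scramble gave no call under either peptide by limma, with 0% and 0.0231% of all genes called and 1 and 4 members with an unadjusted p below 0.05, against 3.65% and 8.99% of all genes. Under the reverse peptide 38 of the 46 genes were below 0, with a median of -0.10, and without scramble replicate 4 the median was 0.00. That library had a summed core of 1711 scaled TPM, the other reverse-peptide scramble libraries 1098 to 1230, and a relative depth (deposited coverage over FPKM) of 2.60, where those had 0.810 to 1.21. Protein-coding genes under 1000 bases had a median of -0.15 here (70.3% below 0), and the part of that library and of length was not tested. The smallest p was that of Psme1, at 40.8, 39.9, 48.6 and 45.4 in scramble cells and 35.1, 35.3 and 37.0 in anti-Hsf1 cells, without overlap (-0.28 ± 0.12, adjusted p = 0.959). Psmc2, Psmc5 and Psmd9 also had every anti-Hsf1 library lower, as did 2.88% of all genes. The differences of Psmc2 and Psmd3, next by p, were -0.25 and -0.31. Under Ab42, Psme1 was at 43.0, 42.9, 51.3 and 56.6 in scramble and 42.4, 38.0 and 34.9 in anti-Hsf1 cells, again each lower (-0.32 ± 0.12, adjusted p = 0.505).

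Under Ab42, Psma3 was at 51.9, 37.4 and 42.2 in anti-Hsf1 cells, below each of the scramble values given above (-0.52 ± 0.17, adjusted p = 0.478), and Psmc1 differed by 0.21 (adjusted p = 0.55). With every library lower stood 2 members, Psma3 and Psme1, against 4.05% of all genes, and 1 higher, Psmd7, against 4.35%. On TPM as deposited this comparison had a median of -0.62 over all genes and -0.77 over the 46 genes. Of these, 41 were then called lower. The share of all genes called on that scale is not given, here or for the interaction. The peptide by LNA interaction called no member by limma (0% of all genes, and 1 member with an unadjusted p below 0.05 against 5.14%), or 19 on TPM as deposited, where the median of all genes was -0.68, with the smallest p for Psma3 (-0.67 ± 0.25, adjusted p = 0.832), Psmd7 (0.33) and Psma7 (0.44). Nfe2l1 was at 101, 52.7, 114 and 88.6 in scramble cells with Ab42 and at 42.0, 40.0, 42.7 and 58.2 with the reverse peptide, with the lowest Ab42 value under the highest reverse peptide value. In that comparison limma called 0 of the 17291 genes tested.

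**Figure D4:**
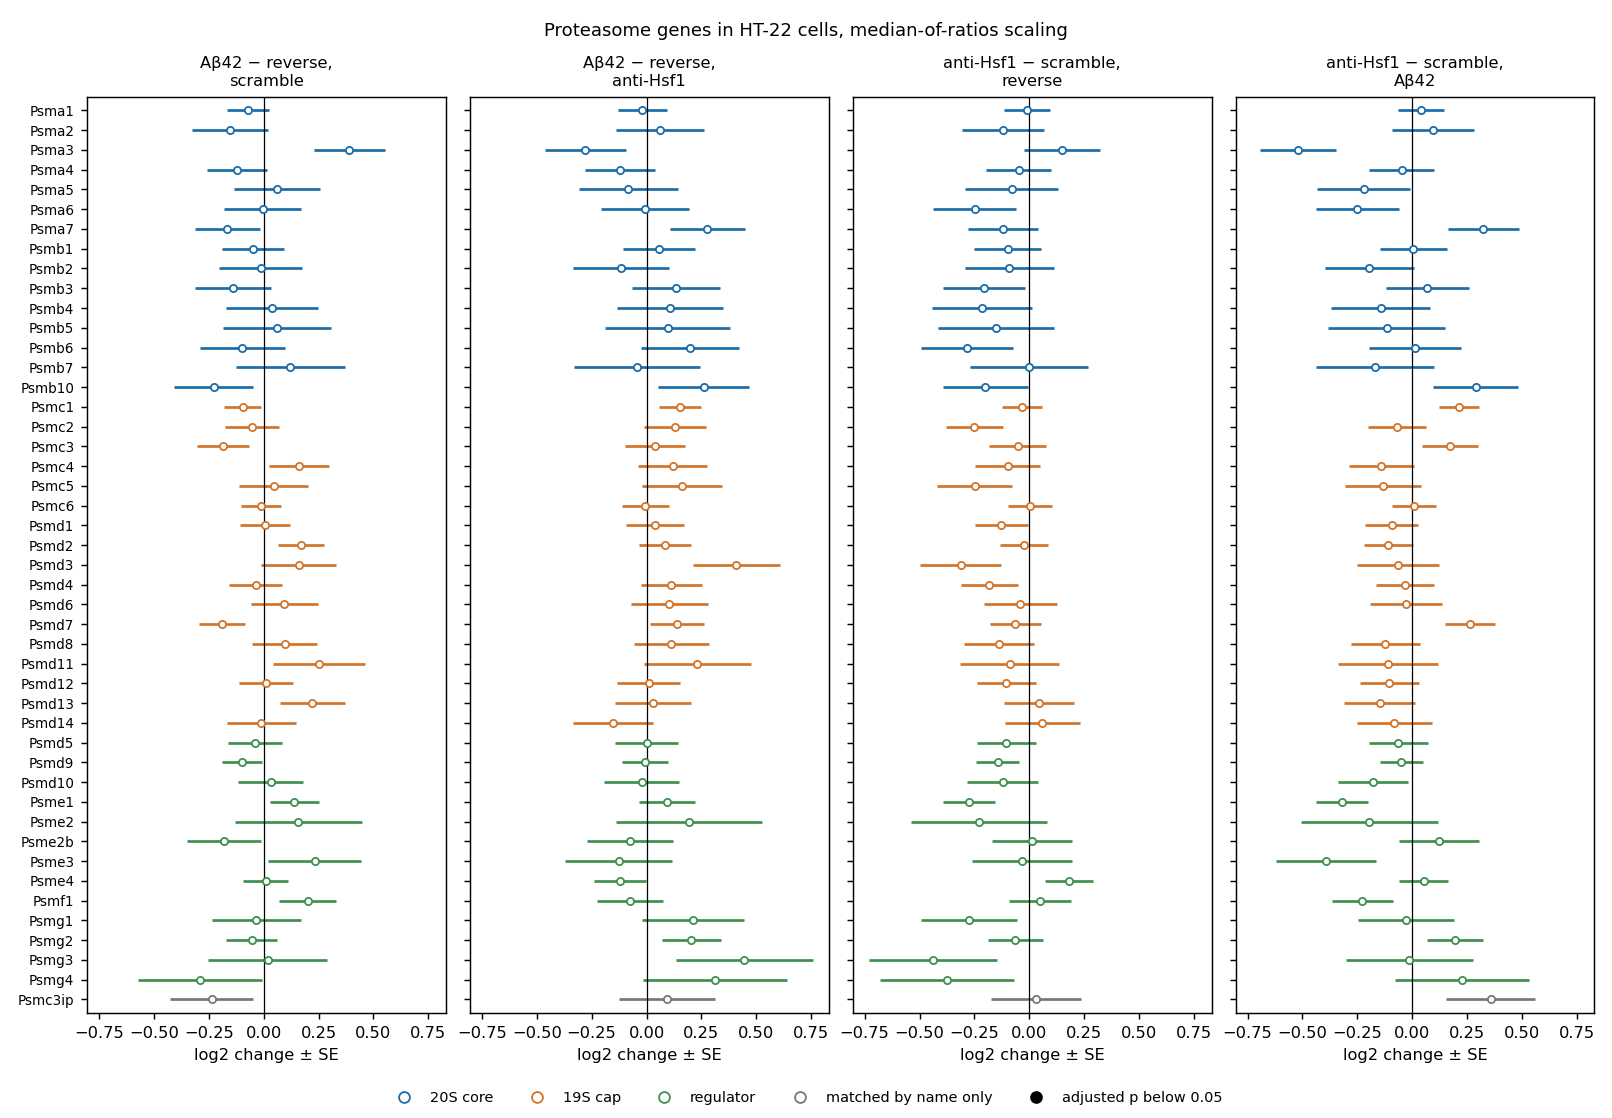
Change of each of the 46 genes in the 4 HT-22 comparisons (log2 of scaled TPM + 1, point with standard error), for Ab42 against the reverse peptide under each LNA and anti-Hsf1 against scramble under each peptide. No point passed an adjusted p of 0.05, and Psma3 shows 0.39 for Ab42 under scramble and -0.52 for anti-Hsf1 under Ab42.

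HT-22 cells with the reverse peptide and scramble LNA were set against the mean of the 3 WT hippocampus groups, with all 31 libraries scaled together. The regulators stood higher in the cell line, and the catalytic core subunits Psmb5 and Psmb7 and several ATPases stood lower with this scaling. Of the 46 genes 31 were called, 19 higher and 12 lower, where 76.7% of all 19596 genes tested were called, 33.5% higher and 43.2% lower, so the share called was below the background. Without HT-22 replicate 4 the calls numbered 26, and without any 1 library they ranged from 26 to 32. The split was 6 higher and 4 lower for the core, 4 and 8 for the cap and 8 and 0 for the regulators. It depended on scaling, with 14 and 0, 16 and 0, and 13 and 0 on TPM as deposited, 9 and 1, 8 and 3, and 13 and 0 after quantile normalisation, 9 and 1, 7 and 3, and 12 and 0 after upper quartile scaling, and 10 and 1, 9 and 2, and 13 and 0 when scaled to the protein-coding total. Relative to the median of all genes, which was -0.13 here and 0.76 on TPM as deposited, the regulators were 0.59 higher and lay between 0.55 and 0.78 higher under the 6 scalings.

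Activators of both kinds were higher in the cell line. Psme4 was at 74.2, 86.7, 66.0 and 65.8 in HT-22 cells and at 32.6 to 33.0, 29.8 to 38.2 and 31.9 to 34.6 in WT at 3, 6 and 12 months on this scaling, without overlap (1.10 ± 0.08, adjusted p = 2.69e-12). Psme2b was 1.69 ± 0.17 higher (adjusted p = 2.05e-09) and Psme2 1.79 ± 0.28 (adjusted p = 3.29e-06), although reads of these near-identical genes cannot be divided with certainty. Psme1 and Psme3 were each 0.46 higher (adjusted p = 0.00284 and 0.00552), Psmd10 0.60 higher (adjusted p = 0.000269), and Psmf1 differed by 0.10 (adjusted p = 0.485). Psme1 and Psme2 together, with Psme2b left out, came to 3.00 to 4.40% of summed core TPM in the mouse group means and 5.71 to 7.09% in the HT-22 group means. These shares depend on how reads were divided between Psme2 and Psme2b. Psme4 came to 2.93 to 3.80% of summed cap TPM in the mouse groups and 7.83 to 9.65% in the cell line.

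Core and cap genes split between higher and lower. Psmb5 was at 31.6, 20.7, 28.8 and 47.2 in HT-22 cells and at 60.5 to 71.8, 78.2 to 91.7 and 71.6 to 88.1 in WT by age, without overlap (-1.31 ± 0.18, adjusted p = 2.72e-07), and on TPM as deposited it was -0.23 and not called. Psmb7 differed by -0.44 (adjusted p = 0.0241) and Psmb6 by 0.40 (adjusted p = 0.0211), while Psmb10 differed by -0.25 (adjusted p = 0.152). With TPM as deposited every core gene but Psmb5 was called higher, so Psmb7 and Psmb10 changed direction there. Within HT-22 cells Psmb5 at a mean of 44.9 stood under Psmb6 at 138 and Psmb7 at 103, whereas in hippocampus the 3 were within 54.5 to 67.3.

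Psmd11 was at 55.7, 57.8, 55.9 and 88.2 in HT-22 cells and at 32.9 to 45.5, 21.8 to 28.7 and 26.4 to 34.0 in WT (1.01 ± 0.16, adjusted p = 2.67e-06). The lid subunit Psmd3 was also higher (0.82 ± 0.14, adjusted p = 1.38e-05). The ATPase Psmc1 went the other way, at 38.3, 36.6, 37.1 and 40.6 in HT-22 cells against 63.5 to 67.3, 60.3 to 91.4 and 69.0 to 83.7 in WT (-0.89 ± 0.09, adjusted p = 5.79e-10). Psmc5 (-0.81 ± 0.12, adjusted p = 1.63e-06) and Psmd14 (-0.67 ± 0.12, adjusted p = 1.41e-05) were lower as well, but Psmc1, Psmc5 and Psmd14 changed direction on TPM as deposited, to 0.19, 0.27 and 0.41. Psmd4 differed by 0.13 (adjusted p = 0.275). Psmc3ip, which is not a subunit, had the largest change of all 46 genes, 1.99 ± 0.18 (adjusted p = 1.49e-10).

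**Figure D5:**
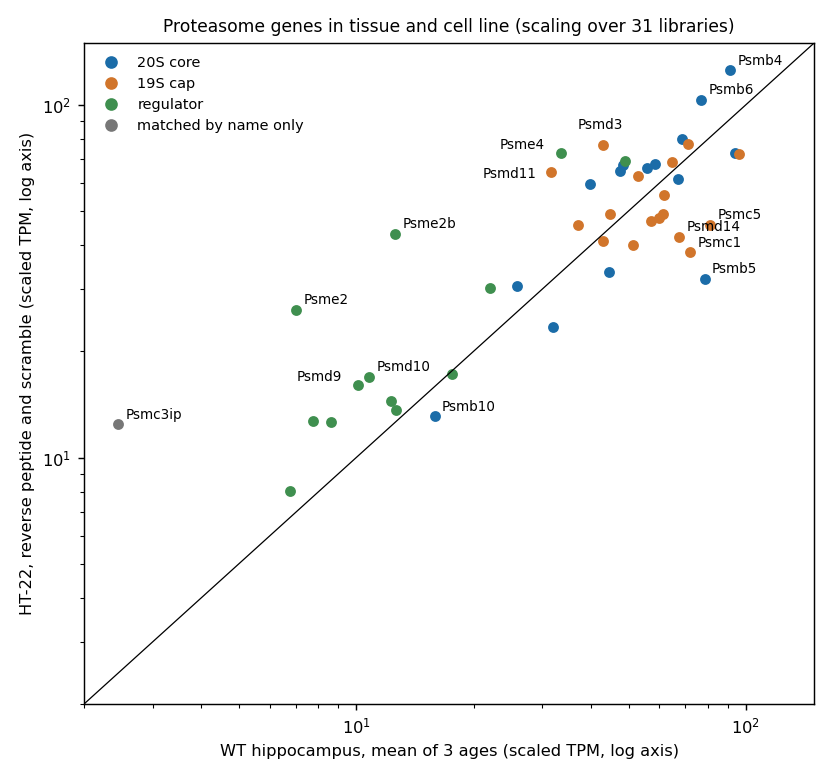
Mean scaled TPM of each of the 46 genes in WT hippocampus (mean of the 3 ages, x axis) and in HT-22 cells with reverse peptide and scramble LNA (y axis), both axes log scaled, with all 31 libraries scaled together. Psme4, Psme2b and Psmc3ip lie above the diagonal and Psmb5 and Psmc1 below it, and the position of the diagonal depends on the scaling, with Psmc1 at 0.19 in the other direction on TPM as deposited.

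Of the 17 partners 4 were higher and 9 lower in the line, a share like the 76.7% of all genes called. They included the cap deubiquitinase Usp14 (0.77) and the shuttle factor Ubqln1 (-1.17). Of the transcription factor genes, Nfe2l2 was 1.88 and Hsf1 1.10 higher, and Nfe2l1 differed by -0.78. Of the 6 listed ubiquitin genes 3 were called higher and 2 lower, with a median of 0.47, and Ubb among them differed by -1.34. As above, the values of this comparison move with the scaling. Psmb8 was listed at 0 in every scramble library of HT-22 cells. A cell line and a tissue differ in cell makeup, growth and handling, and these cannot be told apart here.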

How the data were processed

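Long-RNA libraries of 17 mice and 14 HT-22 cultures were analysed. Per the submitters' processing notes, FastQC, cutadapt 1.18, BWA 0.7.17, HISAT2 2.1.0, StringTie 1.3.4d and bedtools 2.26.0 were used, in roles not given there, on mm10. The authors deposited 1 gene table per library with TPM, FPKM and Coverage signal, per the file headers. TPM summed to 999823 to 999917 per library. FPKM and the deposited coverage signal served only for relative depth and for the Coverage given for Psmd14 and Psmc1. The number of reads per gene is unknown, so no count model was run. Short-RNA tables were not used.

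TPM was scaled by median of ratios, 1 was added and log2 taken, which understates changes of low genes. Genes whose mean TPM reached 1 entered limma 3.58.1 (R 4.3.3, trend and robust moderation), with all groups of a system in 1 fit and Benjamini-Hochberg adjustment over all genes tested. The code was tested on simulated data. Where the fit rests on spread between libraries, p-values measure that spread only. Replicate numbers were not used to pair the samples in the main fit. The genes, lists and rules were chosen with earlier results of these data known. Named genes were called members (up to 10 per comparison, by size), otherwise the 3 with the smallest p, plus catalytic subunits, activators, the inhibitor and a few others chosen by role, the highest and lowest of each class, and called genes of the lists. Alternatives were other scalings, pseudocounts, filters, array weights, a replicate block, fits of single contrasts and leaving out each library. Values of some listed genes are not reported here.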

Additional observations from a re-analysis of the deposited data

Results flagged for a closer look

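In the HT-22 group with the reverse peptide and scramble LNA, replicate 4 stood above the other 3 libraries for Psmd11 (125.7 scaled TPM, the others 80.85 to 83.99), Psma4 (119.4, the others 89.36 to 92.86), Nfe2l1 (58.17, the others 40.02 to 42.68) and the summed 19S cap (1607, the others 1216 to 1261). Each gap was large for a group of 4 by Dixon's criterion, which chance passes in about 1 in 20 groups. Of the 42 gene or sum values in groups of 4, 4 were singled out in this way. All came from replicate 4, and the summed cap includes Psmd11, so they are not separate draws. That library had a relative depth of 2.60, the others of its group 0.810 to 1.21.

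Psma3, Psmc2 and Psmd10 had every APP library above WT at 3 months and every APP library below WT at 6 months. Of all genes tested, 14.1% had every APP library higher at 3 months and 10.1% every APP library lower at 6 months. The share of all genes with both was not computed, so the 3 genes are a description only. The genotype effect at 6 months less that at 3 months was -0.7105 for Psma3, -0.5118 for Psmc2 and -0.7334 for Psmd10. For Psma3 the direction also differed between 3 and 12 months, by -0.4914. The interaction over the 3 ages, in limma, had an adjusted p of 0.104 for Psma3, 0.301 for Psmc2 and 0.292 for Psmd10, so none passed the threshold, and at 6 and 12 months genotype and sex cannot be told apart.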

How the results depend on the processing

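TPM as deposited moved most results, because the median of all genes then lay away from 0. Counts of calls on that scale, here and above, are given without the share of all genes called. They are therefore not read as a result about the 46 genes. At 6 months it gave 24 called genes, all higher, a median over the 46 genes of 0.43 and a Psma4 change of 0.20 in place of -0.50. Medians on this scale were -0.10 at 3 months, 0.14 at 12 months, 0.18 averaged over ages with 1 call, and -0.27 for age in WT, and the genotype by age interaction had 7 calls. In HT-22 cells Ab42 under anti-Hsf1 had 21 calls and a median of -0.50, anti-Hsf1 under Ab42 had 41 and -0.77, and the interaction 19 and -0.70. For HT-22 cells against WT the median became 1.27, and Psmc1, Psmc5 and Psmd14 turned to 0.19, 0.27 and 0.41. That median was 0.51 after quantile normalisation, 0.45 after upper quartile scaling and 0.67 when scaled to the protein-coding total.

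Calls at 6 months numbered 2 after quantile normalisation, upper quartile scaling or median of ratios over genes with mean TPM of at least 5, and 3 with that minimum as the filter. They numbered 0 with no filter, array weights, the 6-month groups alone or the protein-coding total, and 0 to 3 without 1 library. Array weights gave 2 calls for anti-Hsf1 under Ab42. Without 1 library the median for age in APP ranged from -0.154 to -0.0166, the former without APP replicate 2 at 3 months. For HT-22 cells against WT the calls without 1 library numbered 26 to 32, where 31 were called with all. The other comparisons had 0 calls without any 1 library, with medians within the spread of replicates of the main value. The median for anti-Hsf1 under the reverse peptide ranged from -0.15 to 0.00, the latter without scramble replicate 4. Scaling over genes of higher TPM, scaling to the protein-coding total and the repeats of the class medians without 1 library were chosen after seeing the data.

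Libraries of equal replicate number mostly did not deviate together. Their correlation of deviations had a median of -0.00723 over 40 mouse pairs and 0.0154 over 19 HT-22 pairs. The highest was 0.228 in mouse and 0.575 in HT-22, and 3 pairs were over 0.1 in each. Whether the HT-22 pair at 0.575 shared handling was not tested. In mouse 5 of 17 and in HT-22 2 of 14 libraries correlated best with their own number. With a replicate block the 6-month count stayed at 1, Psma4 at -0.50 (adjusted p = 0.0466), and no count of calls moved. No paired analysis was possible for HT-22 cells against WT because the systems share no cultures or animals. Fits of single contrasts were not run for the averaged and interaction results or the comparison of line and tissue, which use all their groups. The files give no counts per gene, so the depth behind a low value is unknown.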
